A study of Mus musculus with 9 samples.

Results

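The genes described here are 10 genes of vascular endothelial growth factor (VEGF) signaling and of the vasohibin family. They are the ligands *Vegfa*, *Vegfb* and *Vegfc*, the receptors *Flt1*, *Kdr* and *Flt4*, the co-receptors *Nrp1* and *Nrp2*, and the vasohibins *Vash1* and *Vash2*. They were taken by name from a table of 14011 genes, in which all 10 were present. Of them *Vash2* was also chosen by its measured values, since its fall in homozygotes against the other groups was among the strongest, so its differences between groups are given as values without a test and are no finding, and counts of changed genes are over the other 9. Each of the 10 genes had between 46 and 2369 reads in every library, so none was kept in the table through 1 group only.

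RNA from mouse embryonic hearts at E10.5, on a mixed strain background, was sequenced in 9 libraries, each from a pool of 6 hearts. Controls carried floxed *Ctcf* without Cre (*Ctcf* fl/fl by the sample labels, *Ctcf* fl/+ by the study's text). Heterozygotes were *Ctcf* fl/+; Nkx2.5-Cre/+ and homozygotes were *Ctcf* fl/fl; Nkx2.5-Cre/+, with 3 libraries in each group. *Ctcf* encodes an architectural protein that binds insulators and chromatin loop anchors, and the Nkx2.5-Cre driver acts in cardiac progenitors and their cardiomyocyte descendants, so that, by the study's account, the endocardium of homozygotes still holds CTCF protein. Heterozygotes and homozygotes both carry the driver, so only the comparison between them leaves the driver equal. *Ctcf* itself was measured at 121, 122 and 122 in controls, at 101, 94.2 and 97.0 in heterozygotes and at 79.6, 80.0 and 84.7 in homozygotes, which is 80.1% and 67.0% of the control mean. Libraries held from 4294537 to 11629365 reads, and values are read counts scaled by the authors, with 1 read worth between 0.0901 and 0.231. The labels do not say how many litters the pools came from, so p-values measure the spread between these pools.

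VEGF is the main growth signal of endothelial cells. VEGF-A binds the receptors KDR (VEGF receptor 2), which carries most of the mitogenic signal, and FLT1 (VEGF receptor 1), which binds the ligand tightly and limits its supply. VEGF-C acts through FLT4 (VEGF receptor 3), and the neuropilins are co-receptors that VEGF shares with class 3 semaphorins. In the embryonic heart the myocardium is a source of VEGF-A, and the receptors are found on the endocardium and the coronary endothelium. Vasohibins are enzymes that, with a small partner protein, remove the last tyrosine of alpha-tubulin. Vasohibin 1 is known as an inhibitor of angiogenesis made by endothelial cells, and vasohibin 2 as a promoter of it.

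The promoters of *Vash2*, whose neighboring genes are described at the end, of *Kdr* and *Flt1*, which passed the test in homozygotes, and of *Flt4*, which alone held a CTCF core match, are shown to set the sequence beside the values. RefSeq (GRCm38.p6) gave 12 promoters for the 10 genes, and the 250 bases before each start were searched on both strands for the CTCF core CNAGNNGGC, the hypoxia response element core ACGTG, the cyclic AMP response element TGACGTCA and the GC box GGGCGG, the site of Sp1. Capitals mark the matches, and each sequence is on the minus strand of the build except that of *Flt4*.
*Vash2*, the upstream one of its 2 starts, chr1:190979297-190979546: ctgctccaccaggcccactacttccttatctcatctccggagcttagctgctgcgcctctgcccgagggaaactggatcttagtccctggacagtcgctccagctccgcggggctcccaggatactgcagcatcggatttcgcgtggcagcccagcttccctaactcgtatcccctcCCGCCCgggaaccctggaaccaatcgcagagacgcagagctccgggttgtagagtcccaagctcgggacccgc
*Kdr*, chr5:75978456-75978705: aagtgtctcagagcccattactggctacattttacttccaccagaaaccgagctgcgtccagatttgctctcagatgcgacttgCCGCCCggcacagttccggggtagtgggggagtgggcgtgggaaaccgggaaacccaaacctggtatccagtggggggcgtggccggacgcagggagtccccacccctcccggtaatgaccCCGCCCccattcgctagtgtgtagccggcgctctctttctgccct
*Flt1*, chr5:147726012-147726261: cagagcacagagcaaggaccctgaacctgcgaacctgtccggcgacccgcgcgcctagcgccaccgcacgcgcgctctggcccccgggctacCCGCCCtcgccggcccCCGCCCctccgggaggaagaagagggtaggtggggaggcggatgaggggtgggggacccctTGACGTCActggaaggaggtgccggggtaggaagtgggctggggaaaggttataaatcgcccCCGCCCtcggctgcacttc
*Flt4*, chr11:49609429-49609678: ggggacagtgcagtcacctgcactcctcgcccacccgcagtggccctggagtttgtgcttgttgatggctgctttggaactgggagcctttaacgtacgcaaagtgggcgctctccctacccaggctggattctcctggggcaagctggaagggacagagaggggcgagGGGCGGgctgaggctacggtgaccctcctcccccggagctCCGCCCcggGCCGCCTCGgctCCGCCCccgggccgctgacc

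The CTCF core was found in 1 of the 12 promoters, that of *Flt4*, 32 bases before its start, and in 17.1% of the 32851 promoters of the genome table. The hypoxia core was also found in 1, that of the second start of *Vegfa*, and in 16.6% of all promoters. This window, chr17:46025164-46025413, lies downstream of the first start in the sense of the gene. The window of the first start, chr17:46032378-46032627, held no hypoxia core. The cyclic AMP response element was found only in the *Flt1* window among the 12 and in 1.55% of all promoters. GC boxes were found in 11 of the 12, the exception being *Vash1*, and in 32.7% of all promoters. The GC content of the 12 windows ran from 59.2% to 76.4%. The only overlapping matches were a pair of GC boxes in *Nrp2*. These letters are matches in a short window, with no binding measured here.

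In control hearts the order of the 10 genes, as value per kb of exon, ran from *Nrp1* at 40.2 ± 1.76 (SD, n = 3) to *Flt4* at 3.19 ± 0.398. *Vegfb* followed *Nrp1* at 31.8 ± 2.39 per kb, then *Vash2* at 22.9 ± 0.848, *Kdr* at 19.3 ± 2.52 and *Vegfa* at 16.8 ± 0.302. Below them stood *Vash1* at 8.53 ± 0.278 per kb, *Vegfc* at 6.71 ± 0.540, *Flt1* at 5.32 ± 0.296 and *Nrp2* at 4.01 ± 0.457. Neighbors in this order had separate ranges over the control libraries, except *Kdr* and *Vegfa*, and *Nrp2* and *Flt4*, whose ranges overlapped. By this measure *Vash2* stood above *Vash1*, and *Kdr* above the other receptor genes. The remaining levels are scaled read counts per gene, not divided by exonic length. Any order or ratio between genes given with them is one of counts.

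**Figure D1:**
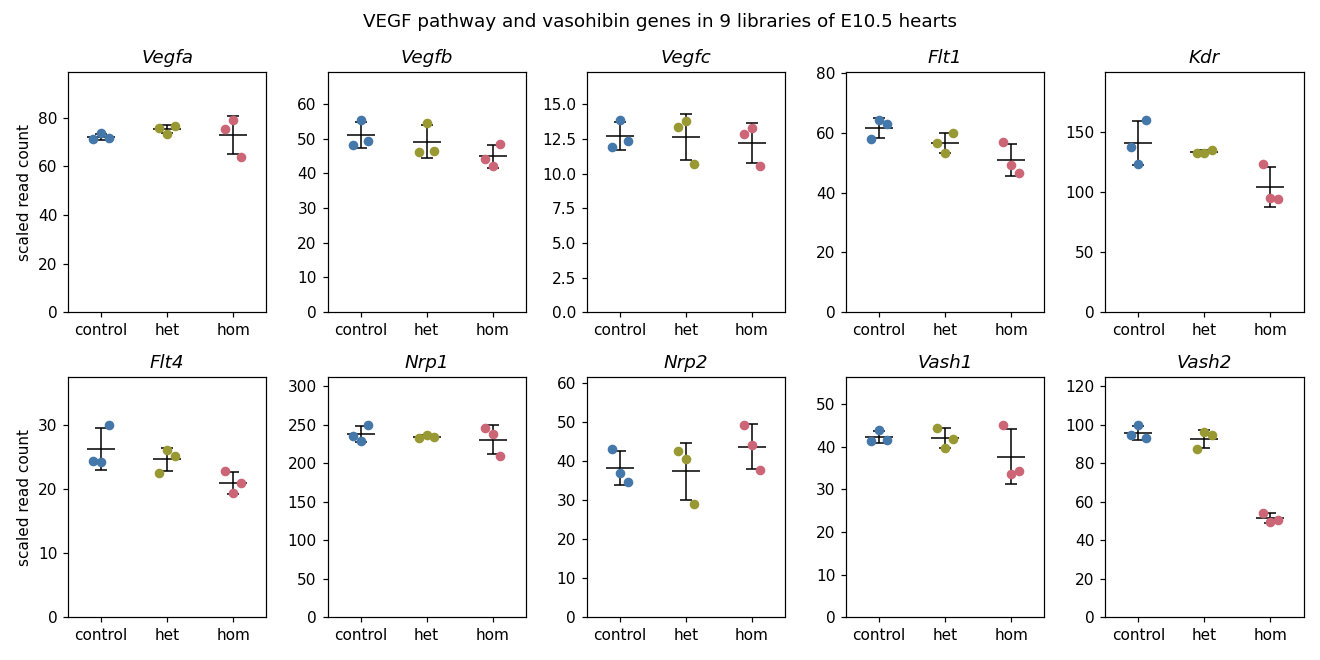
Scaled read count of each of the 10 genes in the 3 control, 3 heterozygote (het) and 3 homozygote (hom) libraries, in library order from left to right, with the mean as a bar and the SD as whiskers; each panel has its own axis from 0. *Vash2* was at 49.5 to 54.4 in homozygotes and at 87.2 or more elsewhere, while *Vegfa* and *Nrp1* overlapped between groups.

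Of the 9 genes other than *Vash2*, *Kdr* and *Flt1* fell in homozygotes against controls and the other 7 did not pass the test (limma, adjusted p under 0.05). Those 2 stand against a background of 8.03% of all genes called lower and 15.2% called in either direction. Between homozygotes and heterozygotes *Kdr* alone of the 9 passed, also lower, against 6.70% of all genes called lower and 13.6% in either direction. In 7 of the 9 the log2 fold change against controls was below 0, with a median of -0.18 beside -0.0011 over all genes tested. Libraries of homozygotes and controls did not overlap in 3 of the 9, *Flt1*, *Kdr* and *Flt4*, against 33.2% of all genes, and those of homozygotes and heterozygotes in 1 of the 9, *Kdr*, against 30.8%.

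**Figure D2:**
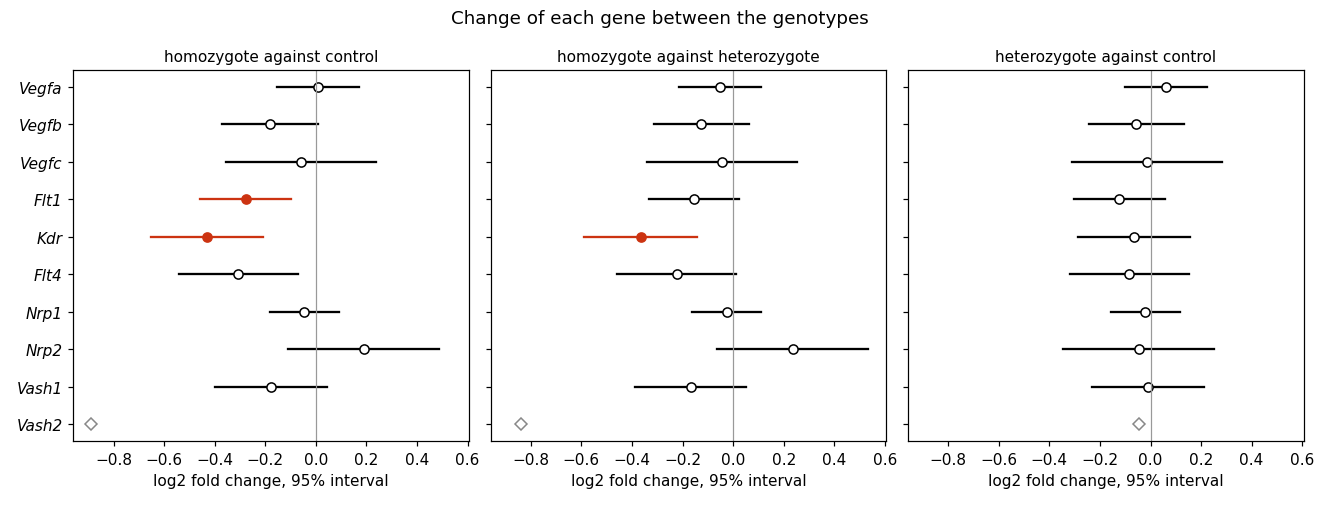
Log2 fold change of each gene with its 95% interval from limma in the 3 comparisons, filled red where the adjusted p was under 0.05 and open where it was not; the grey diamonds are *Vash2*, a description with no test or interval. *Kdr* lies at -0.43 and -0.37 in the comparisons with homozygotes, and every interval for heterozygotes against controls spans 0.

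None of the 3 ligands passed the test in any comparison, by limma, edgeR or DESeq2, and none had an unadjusted p under 0.05 in limma. *Vegfa* (chromosome 17, 46153942-46169326, minus strand, NCBIM37) encodes the principal ligand of KDR and FLT1. It was at 71.3, 73.7 and 71.6 in controls, at 75.8, 73.4 and 76.7 in heterozygotes and at 75.5, 79.1 and 64.0 in homozygotes. The homozygote libraries lay on both sides of the controls, and their mean was 101% of the control mean, a log2 fold change of 0.01 (95% interval -0.15 to 0.17). Homozygote library 2 was the highest of the 9 libraries and homozygote library 3 the lowest. *Vegfb* (chromosome 19, 7056963-7062141, minus strand), a ligand of FLT1 and neuropilin 1 but not of KDR that is high in cardiac muscle, was at 48.2, 55.4 and 49.3 in controls, 46.2, 54.6 and 46.5 in heterozygotes and 44.2, 42.1 and 48.5 in homozygotes. Its homozygote range overlapped the control range by 1 library, with a log2 fold change of -0.18 (SE 0.088, adjusted p = 0.188). *Vegfc* (chromosome 8, 55162886-55271808, plus strand), the ligand of FLT4 and the inducer of lymphatic growth, was the lowest of the 10 as counted, at 11.9, 13.9 and 12.4 in controls, 13.4, 13.8 and 10.7 in heterozygotes and 12.8, 13.3 and 10.6 in homozygotes. The 3 groups of *Vegfc* overlapped throughout, and its interval against controls, -0.35 to 0.24, is wide.

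Of the receptor genes *Kdr* and *Flt1* fell in homozygotes against controls and *Flt4* did not pass the test. The libraries of all 3 did not overlap between these groups, as was so for 33.2% of all genes. *Kdr* (chromosome 5, 76328852-76374483, minus strand) encodes the receptor that drives endothelial growth and is among the earliest markers of endocardial progenitors. It was at 138, 123.4 and 160 in controls, at 133, 133 and 135 in heterozygotes and at 123.2, 95.2 and 94.0 in homozygotes. Homozygote library 1 lay just under the lowest control, and libraries 2 and 3 well under it. *Kdr* fell to 74.3% of the control mean, by 0.43 on the log2 scale (SE 0.10, adjusted p = 0.0136), and to 78.2% of the heterozygote mean, by 0.37 (SE 0.10, adjusted p = 0.0326). Both calls were lost without some single libraries and in limma without the mean-variance trend (adjusted p = 0.0721 and 0.117), and that against heterozygotes also with the trend of values with gene length removed (adjusted p = 0.0651). Against controls the adjusted p was 0.0695 without control library 3, 0.0525 without homozygote library 2 and 0.0591 without homozygote library 3, with log2 fold changes from -0.37 to -0.33. Against heterozygotes it was 0.0748, 0.0747 and 0.0884 without heterozygote libraries 1, 2 and 3, and 0.111 and 0.126 without homozygote libraries 2 and 3.

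*Flt1* (chromosome 5, 148373180-148537587, minus strand) encodes the receptor that traps VEGF-A, also in a soluble form. It was at 57.8, 64.3 and 62.9 in controls, 56.6, 53.3 and 59.9 in heterozygotes and 56.9, 49.2 and 46.7 in homozygotes. Homozygote library 1 again stood next to the control range, and the heterozygotes overlapped both other groups. *Flt1* fell by 0.28 on the log2 scale against controls (SE 0.083, adjusted p = 0.0382), to 82.6% of the control mean, while against heterozygotes the log2 fold change was -0.15 (adjusted p = 0.249). *Flt1* has 11583 exonic bases, the most of the 10, and with the trend of values with gene length removed in each library its log2 fold change against controls was -0.098 (adjusted p = 0.507). The adjusted p was 0.118 without control library 2, 0.121 without control library 3, 0.0983 without homozygote library 2 and 0.145 without homozygote library 3. *Flt4* (chromosome 11, 49422765-49466241, plus strand), the VEGF-C receptor of lymphatic and early endothelium, was at 24.4, 24.3 and 30.0 in controls, 22.6, 26.2 and 25.3 in heterozygotes and 22.8, 19.4 and 21.0 in homozygotes. The homozygotes lay under all controls, and the log2 fold change of -0.31 (SE 0.11) had an adjusted p of 0.0740, above the threshold.

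Neither co-receptor gene passed the test in any comparison. *Nrp1* (chromosome 8, 130882973-131029362, plus strand), which encodes the co-receptor of VEGF-A and of semaphorin 3A, was the highest of the 10. It was at 235, 229 and 249 in controls, 232, 237 and 234 in heterozygotes and 245, 237 and 209 in homozygotes. Homozygote library 3 stood under the rest, and the other 2 lay within the controls, giving a log2 fold change of -0.05 (SE 0.064). Its exons hold 80 bases of the microRNA gene *Mir1903*, the only exonic overlap among the 10 genes. *Nrp2* (chromosome 1, 62749859-62865269, plus strand), which encodes the co-receptor of VEGF-C and of semaphorin 3F, was at 43.0, 37.0 and 34.6 in controls, 42.6, 40.4 and 28.9 in heterozygotes and 49.2, 44.1 and 37.8 in homozygotes. It was the only gene of the 10 with a value above 0 in both comparisons with homozygotes, with log2 fold changes of 0.19 (SE 0.14) and 0.24 (SE 0.14), and its libraries overlapped between groups.

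Of the vasohibins, *Vash2* was low in every homozygote library and *Vash1* was not. *Vash2* (chromosome 1, 192771527-192803175, minus strand) was at 94.5, 99.8 and 93.0 in controls, 87.2, 96.2 and 94.7 in heterozygotes and 54.4, 49.5 and 50.7 in homozygotes. All 3 homozygote libraries stood far under every other library, at 53.8% of the control mean and 55.6% of the heterozygote mean. The log2 fold changes were -0.89 and -0.84. *Vash1* (chromosome 12, 88019650-88036630, plus strand) was at 41.4, 43.9 and 41.6 in controls, 44.4, 39.8 and 41.9 in heterozygotes and 45.1, 33.6 and 34.3 in homozygotes. Its homozygote library 1 was the highest of the 9 and libraries 2 and 3 the lowest, so the log2 fold change of -0.18 (SE 0.10, adjusted p = 0.273) did not pass the test. Without homozygote library 1 *Vash1* was at -0.31 (adjusted p = 0.0253) against controls and at -0.30 (adjusted p = 0.030) against heterozygotes. The ratio of *Vash2* to *Vash1* was 2.28, 2.27 and 2.24 in controls, 1.97, 2.42 and 2.26 in heterozygotes and 1.21, 1.47 and 1.48 in homozygotes.

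Heterozygotes, in which *Ctcf* was at 80.1% of the control mean, passed the test against controls in 0 of the 9 genes other than *Vash2* (limma), where 0.143% of all genes, 20 in number, were called. None of the 9 had an unadjusted p under 0.05, against 1032 of all genes, and none was called by edgeR or DESeq2. The largest log2 fold change was -0.12 for *Flt1* (95% interval -0.30 to 0.056). *Vash2*, chosen on values of all 3 groups and so not tested, was at -0.05, or 96.8% of the control mean. The widest interval was that of *Nrp2*, -0.34 to 0.25.

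Since the receptors are endothelial genes, the endothelial and endocardial markers were summed in each library, leaving the 10 genes out. In bulk hearts fewer cells of a type and less RNA per cell cannot be told apart. The 16 markers, which include *Pecam1*, *Cdh5* and *Tek*, were all in the table, and summed to 1444 to 1580 in controls, 1409 to 1462 in heterozygotes and 1262 to 1511 in homozygotes. Homozygote library 1 was at 101% of the control mean and libraries 2 and 3 at 85.6% and 84.1%. Of the 16, *Npr3* fell by 0.39 on the log2 scale against controls and *Emcn* rose by 0.26, 12 lay below 0 and the median was -0.14. Without homozygote library 1, 6 of the 16 fell and none rose, and the call of *Emcn* was also lost without control library 1, control library 3 or homozygote library 2, with DESeq2 and in limma without the mean-variance trend. Against heterozygotes none of the 16 passed the test (limma), 10 lay below 0 and the median was -0.07. The mean of *Npr3* was 241 in controls, 212 in heterozygotes and 185 in homozygotes. *Kdr* made up 9.52%, 8.35% and 10.1% of this sum in controls, 9.07%, 9.41% and 9.52% in heterozygotes and 8.15%, 7.42% and 7.45% in homozygotes. The homozygotes were thus the lowest 3 libraries for this share too, and the exact permutation test (two-sided) gave p = 0.1 against either group, the smallest that 3 against 3 allows. The share of *Flt1* was 3.98% to 4.35% in controls and 3.70% to 3.83% in homozygotes, again with no overlap (exact p = 0.1), but at 3.78% to 4.23% in heterozygotes it overlapped the homozygotes (exact p = 0.2). That of *Flt4* overlapped in both comparisons (exact p = 0.2). *Vegfa*, set beside the same sum, was at 4.53% to 4.99% of it in controls, 5.18% to 5.42% in heterozygotes and 4.995% to 6.16% in homozygotes, which lay just above the controls (exact p = 0.1) and overlapped the heterozygotes (exact p = 1). The heterozygotes also lay above the controls with no overlap (exact p = 0.1).

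**Figure D3:**
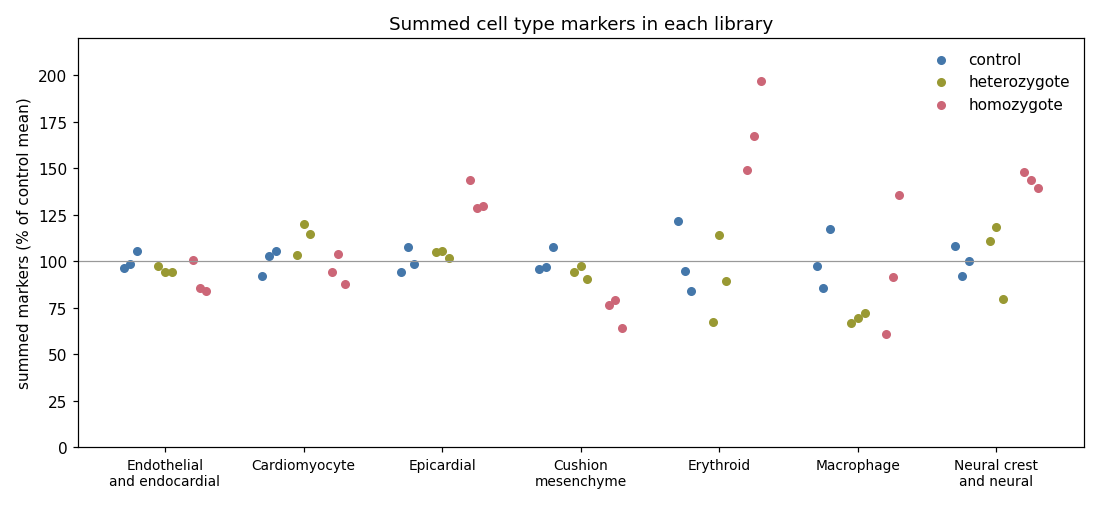
Summed scaled read counts of the markers of 7 cell types in each library, as percent of the control mean, with 3 points per genotype. Erythroid markers lie at 149% to 197% in homozygotes and at 67.3% to 122% elsewhere, and endothelial and endocardial markers at 84.1% to 101% in homozygotes.

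Markers of several other cell types differed in the homozygotes as well. Against controls all 7 erythroid markers rose, with a sum of 32486 to 47157 in controls, 26089 to 44207 in heterozygotes and 57769 to 76370 in homozygotes. The number called was 4 without control library 2 or homozygote library 2, 3 without homozygote library 3 and 1 without control library 3, and 4 with the length trend removed or with DESeq2. It was 2 with quantile normalization and 0 in limma without the mean-variance trend, which kept 8 of all 19 marker calls against controls. Of 7 epicardial markers 4 rose, *Wt1*, *Tbx18*, *Upk3b* and *Upk1b*, and of 8 cushion mesenchyme markers 3 fell, *Postn*, *Pdgfra* and *Vcan*, with sums of 1506 to 1692 in controls, 1424 to 1531 in heterozygotes and 1007 to 1240 in homozygotes. The epicardial sum was 440 to 503 in controls, 475 to 492 in heterozygotes and 600.2 to 670.02 in homozygotes. The 10 cardiomyocyte markers were all in the table, and of them *Ryr2* fell, *Myl4* rose, a call lost without any 1 of the homozygote libraries and in several other fits, and the sum overlapped between groups, at 19671 to 22457 in controls, 22092 to 25547 in heterozygotes and 18744 to 22107 in homozygotes. Against heterozygotes 3 of the 10 fell, *Ryr2*, *Myh6* and *Myh7*, and none rose. The calls of *Myh6* and *Myh7* were lost without heterozygote library 2, without homozygote library 3 and in limma without the mean-variance trend. None of 7 macrophage markers passed the test or had an unadjusted p under 0.05 against controls (limma), with sums of 19.1 to 26.1, 14.9 to 16.03 and 13.5 to 30.2. Of 6 neural markers 3 were in the table and *Tubb3* rose, with sums of 19.9 to 23.3, 17.2 to 25.5 and 30.03 to 31.9, and *Sox10* and *Foxd3* were among those not listed. The part of these markers in the levels of the 10 genes was not tested.

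Of 78 other genes of the pathway in 8 lists, 15 changed in homozygotes against controls, 10 lower and 5 higher, which is 19.2% beside 15.2% of all genes. Their median log2 fold change was -0.11 and 52 of the 78 lay below 0. Against heterozygotes 11 of the 78 changed, 7 lower and 4 higher, or 14.1% beside 13.6% of all genes. Both shares are near the background of all genes. None of the 78 passed the test between heterozygotes and controls in limma, edgeR or DESeq2, and 2 had an unadjusted p under 0.05 in limma. Several calls were lost without a single library, since 5 of the 15 stayed called without control library 3, 8 without homozygote library 3, and 9 without control library 1 or homozygote library 2. Of the 15, *Sema3a*, *Ptprb*, *Ptpn11*, *Hif1a* and *Ccdc23* stayed called whichever single library was left out, and the other 10 lost their call in at least 1 of these fits. With the trend of values with gene length removed 7 of the 15 stayed called, with the replicate block 10 and in limma without the mean-variance trend 5. *Ptprb* and *Ccdc23* lost their calls with the length trend removed, *Hif1a* without the mean-variance trend and *Ptpn11* in both, so that *Sema3a* alone of the 15 stayed called in all 20 alternative fits. Of the 11 calls against heterozygotes 4 stayed in all 20, those of *Sema3a*, *Sema3d* and *Ccdc23* among them, and 6 to 9 stayed when 1 heterozygote or homozygote library was left out.

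**Figure D4:**
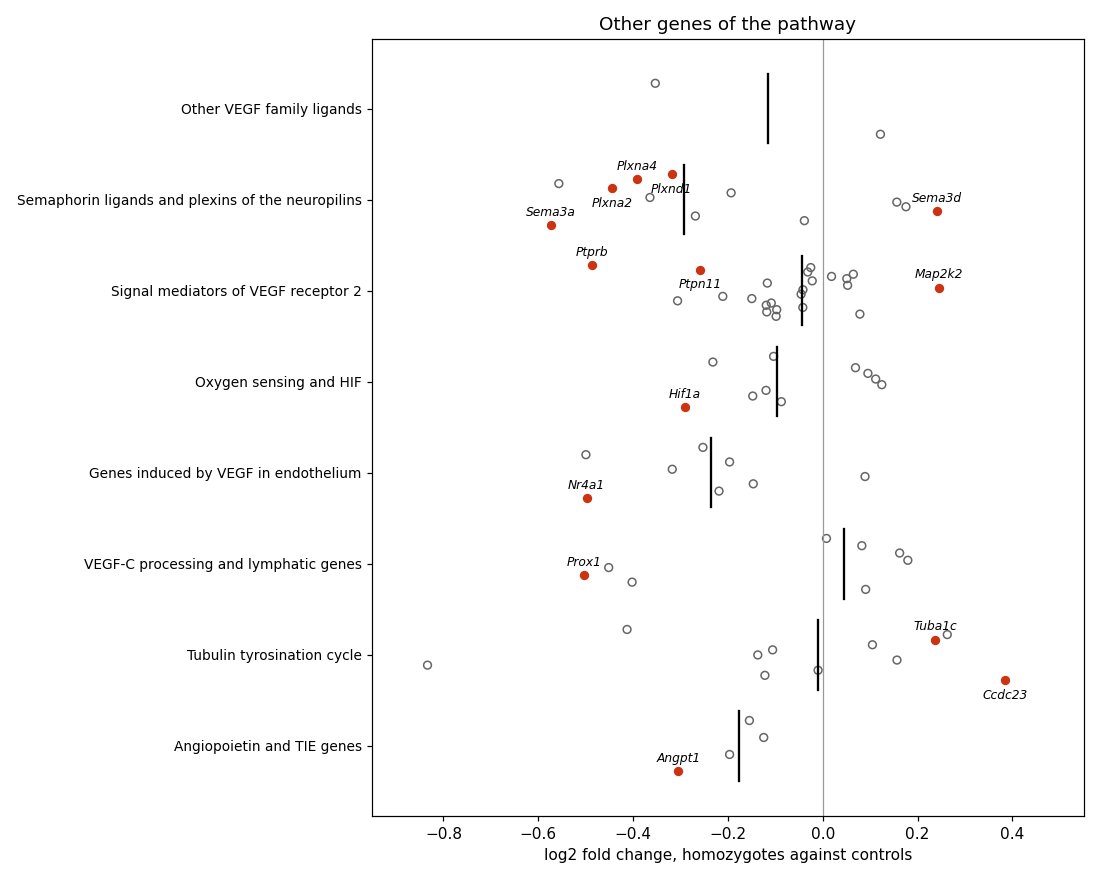
Log2 fold change in homozygotes against controls of the other genes of the pathway in 8 lists, one point per gene reported, filled and named where the adjusted p was under 0.05, with a bar at the median of each list. Named genes lie between -0.57 for *Sema3a* and 0.38 for *Ccdc23*, and most lists have their median between -0.30 and 0.05.

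The neuropilins also act with plexins as receptors of class 3 semaphorins. Of 12 class 3 semaphorins and plexins, 4 fell against controls and 1 rose, with a median of -0.29. Those 5 calls became 1 without control library 3 or in limma without the mean-variance trend, and 2 without control library 1, without homozygote library 3 or with the length trend removed. *Sema3a*, the repulsive ligand of neuropilin 1, fell by 0.57 on the log2 scale, from 58.6 ± 7.22 in controls to 39.1 ± 3.80 in homozygotes (SD, n = 3, adjusted p = 0.00174). The plexin receptors *Plxna2*, *Plxna4* and *Plxnd1* fell by 0.44, 0.39 and 0.32 (adjusted p = 0.0389, 0.0132 and 0.0301). *Plxnd1*, the endothelial plexin, went from 298 ± 27.6 in controls to 240.1 ± 35.5 in homozygotes. These 3 plexin calls were lost with the length trend removed. *Sema3d*, named here after its value was seen as the 1 of this list that rose, was at 0.24 (adjusted p = 0.0283). *Sema3a* and *Plxna2* fell and *Sema3d* rose also against heterozygotes, but that call of *Plxna2* was lost without heterozygote library 2 or 3, without homozygote library 3 and in limma without the mean-variance trend.

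Genes that carry the signal of KDR within the cell mostly did not pass the test. Of 24 measured mediators 2 fell and 2 rose, with a median of -0.04, and *Sh2d2a* was not listed. *Ptprb*, the endothelial phosphatase that restrains TIE2 and KDR, fell by 0.49 against controls (adjusted p = 0.00341), and *Ptpn11*, the phosphatase SHP2, by 0.26 (adjusted p = 0.00949), both calls being lost with the length trend removed. Against heterozygotes *Ptprb* did not pass the test, at -0.19 (adjusted p = 0.189). Its mean was 63.4 in controls, 51.7 in heterozygotes and 45.2 in homozygotes. *Map2k2*, a MAP kinase kinase, rose by 0.24 against controls (adjusted p = 0.0169). That call was lost in limma without the mean-variance trend and without control library 2 or 3 or homozygote library 3. Of 8 measured genes that VEGF induces in endothelium, *Nr4a1*, a nuclear receptor of the immediate early response, fell by 0.50 (adjusted p = 0.0341), 7 lay below 0 and the median was -0.24. This call of *Nr4a1* was lost with DESeq2, with the replicate block and without control library 2 or 3 or homozygote library 2 or 3. *Nr4a1* was low, at 12.1 ± 0.990 in controls and 8.43 ± 1.27 in homozygotes, and *Egr3*, *Esm1* and *Apln* were not listed. *Dll4*, the Notch ligand of tip cells, was at 13.5 in controls and 10.97 in homozygotes without passing the test (adjusted p = 0.202).

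Of 10 genes of oxygen sensing, which set *Vegfa* transcription, *Hif1a* fell by 0.29 (SE 0.063, adjusted p = 0.00843), from 372 ± 10.8 to 305 ± 21.0. It encodes the oxygen-regulated subunit of the hypoxia-inducible factor, and it also fell against heterozygotes by 0.24 (adjusted p = 0.0244). That second call was lost without heterozygote library 1 or 3, without homozygote library 1 or 3, with the replicate block, with the length trend removed and in limma without the mean-variance trend. The other 9 did not pass the test, and the median of the list was -0.10. Of the 8 genes of VEGF-C processing and lymphatic identity, *Prox1*, a transcription factor of lymphatic endothelium that is also made in cardiomyocytes, fell by 0.50 (adjusted p = 0.0113), from 26.8 ± 3.02 to 18.8 ± 2.44. *Ccbe1* and *Adamts3*, which activate VEGF-C, were at 3.61 and 5.48 in controls and at 3.86 and 4.19 in homozygotes. The median of that list was 0.05. Of 4 measured angiopoietin and TIE genes, of which *Tek* and *Tie1* are also endothelial markers and *Angpt2* is also a VEGF-induced gene, *Angpt1* fell by 0.30 (adjusted p = 0.0413), and the median was -0.18. The call of *Angpt1* was lost with the length trend removed, with the replicate block and in limma without the mean-variance trend, and without control library 1 or 3 or homozygote library 2 or 3. *Angpt1* is made by the myocardium and binds TIE2 on the endocardium. *Pgf* and *Figf*, the other VEGF ligands, were at 4.43 and 1.11 in controls and did not pass the test (median -0.12).

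The vasohibins act on alpha-tubulin, and 11 of 13 listed genes of that cycle were measured. *Ccdc23*, which encodes the small vasohibin-binding protein SVBP, rose by 0.38 on the log2 scale in homozygotes against controls (SE 0.085, adjusted p = 0.00919), from 40.5 ± 4.16 to 53.0 ± 3.00. It was also higher than in heterozygotes, at 0.47 (adjusted p = 0.00326). *Tuba1c*, an alpha-tubulin, rose by 0.24 (adjusted p = 0.0266) against controls. *Ttl*, the ligase that restores the tyrosine, was at 22.7 in controls and 20.8 in homozygotes (adjusted p = 0.562). The main alpha-tubulin genes of these hearts, *Tuba1a* and *Tuba1b*, were at -0.11 and 0.10 and did not pass the test. The median of the list was -0.01, and the calls of *Ccdc23* and *Tuba1c* against controls were lost with the trend of gene length removed, while that of *Ccdc23* against heterozygotes was kept.

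The genes whose levels followed those of *Vash2* most closely over the 9 libraries were, by Pearson correlation of log2 values among 9847 genes with a mean of at least 10, *Tmem136* (r = 0.993), *Wisp1* (0.992), *Tgm2* (0.989), *Hey2* (0.988) and *Alg5* (0.985). The 9 libraries fall into 3 genotype groups and share 1 scaling, so any gene with a like step between homozygotes and the rest reaches a high r. *Tmem136* went from 22.2 to 8.90 between controls and homozygotes, *Wisp1* from 50.9 to 20.8 and *Tgm2*, a transglutaminase, from 336 to 184. *Hey2*, a Notch target and transcription factor of the ventricular compact myocardium, went from 69.8 to 41.5, and *Alg5* from 22.2 to 16.4. The genes most like *Kdr* were *Tnrc18* (r = 0.990), *Plxnd1* (0.990), *Lman1* (0.981), *Med1* (0.975) and *Cul7* (0.974). Among the 10 genes *Flt4* was the nearest to *Kdr* (r = 0.900), then *Vash2* (0.816) and *Flt1* (0.815). *Vegfa* was most like *Epc1* (r = 0.932), *Dgke* (0.913), *Adrbk2* (0.910), *Serinc1* (0.904) and *Ppic* (0.901), and its r with *Kdr* was 0.170.

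**Figure D5:**
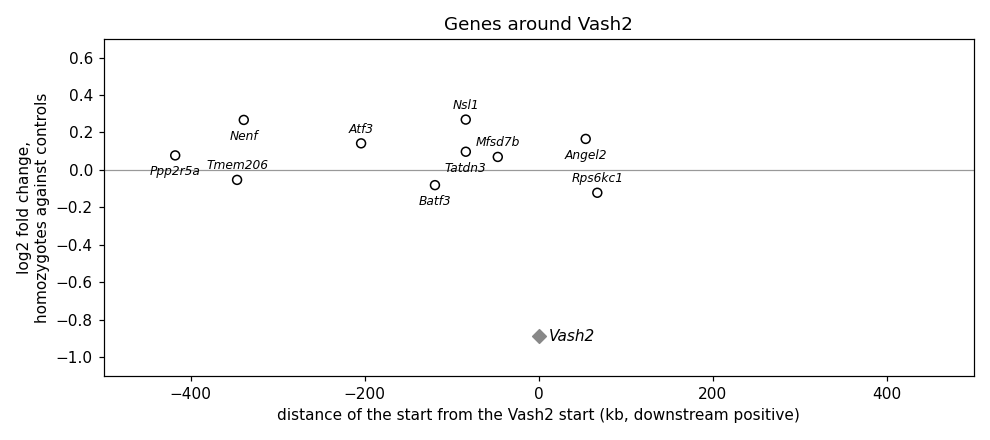
Log2 fold change in homozygotes against controls of the measured protein-coding genes with a start within 500 kb of that of *Vash2*, against the distance between starts in kb, with *Vash2* as a grey diamond. The 10 neighbors lie between -0.12 and 0.27, and *Vash2* at -0.89.

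Values of the genes around *Vash2* were compared with its own. Of 12 other protein-coding genes with a start within 500 kb, 10 were measured, and against controls none passed the test in limma or DESeq2 and 1 did, higher in homozygotes, in edgeR. At an unadjusted p under 0.05 there were 2 in limma. Their log2 fold changes ran from -0.12 for *Rps6kc1* to 0.27 for *Nsl1*. *Angel2*, whose start is 54.2 kb downstream of that of *Vash2*, was at 54.9 in controls and 61.6 in homozygotes (log2 fold change 0.17, adjusted p = 0.112). *Mfsd7b*, the nearest on the upstream side with 46.9 kb between the starts, was at 23.1 and 24.3 (0.07, adjusted p = 0.806). Against heterozygotes *Nsl1* and *Mfsd7b* were higher in homozygotes by 0.29 and 0.51 (adjusted p = 0.0421 and 0.0387). The mean of *Mfsd7b* was 16.8 in heterozygotes, under that of controls as well as that of homozygotes. *Nsl1* was at 29.4 in controls, 28.9 in heterozygotes and 35.5 in homozygotes. *Atf3*, a stress-response transcription factor whose start is 204 kb away on the upstream side, was at 10.2 in controls and 11.4 in homozygotes.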

How the data were processed

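The 9 libraries were polyA RNA of pooled E10.5 hearts from 3 genotype groups. The authors deposited a table of scaled signal values per gene, made on the NCBIM37 transcriptome. Per the labels, the tools were CASAVA 1.8, cutadapt 1.6.1, RSEM 1.20, Bowtie2 and limma, and the strand of counting is not given in the sources used here. The deposited signal values were the sum of whole reads and 0.5, times a step per library, since 100% of values came out whole within 0.05 read. A test of these read counts with edgeR, run as an alternative, called 2212 genes between homozygotes and controls, where limma called 2133. The control columns are named Het in the table. They were assigned from the study's text, which gives controls as heterozygous for the floxed allele without Cre, and from the group averages it lists, while the other column names stand for double heterozygotes and KO.

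Values were analyzed as log2(value + 0.5) with limma 3.58.1 in R 4.3.3, fitting the 3 groups together with a trend of the variance on the mean. The p-values of all 14011 genes were adjusted by Benjamini-Hochberg, and the threshold for a call was 0.05. A log2 fold change on this scale understates changes of low genes. Alternatives were other pseudocounts, filters, scalings, edgeR 4.0.16, DESeq2 1.42.0, removal of the trend with gene length (loess, span 0.5), a replicate block and each library left out. Applying them to the lists and to the genes around *Vash2* was added after seeing the data. Gene positions and exonic lengths came from GENCODE M1, and promoters from RefSeq (GRCm38.p6), so the coordinates of promoters and genes are on different builds.

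The members and gene lists were chosen with earlier results of these data known. Named genes were the 10, the called genes of each list with the 4 largest changes, the 5 genes most correlated with *Vash2*, *Kdr* and *Vegfa*, and the genes within 500 kb of *Vash2*. Uncalled genes of the lists, such as *Dll4*, *Ttl* and *Ccbe1*, were named outside this rule, for their known role, after their values were seen. Tests per library share used exact permutation (SciPy 1.17.1) and were added after the values were seen. A gene of these lists and a marker are not reported here. Replicate numbers were not used to pair libraries in the main fit.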

Additional observations from a re-analysis of the deposited data

How the results depend on the processing

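The count of called genes among the 9 other than *Vash2*, 2 against controls, was 1 (*Kdr*) with only the 2 groups in the fit, with DESeq2, with the trend of gene length removed and with the replicate block, and 0 in limma without the mean-variance trend, and leaving out 1 library gave 0 to 3. It was 0 without control library 3, homozygote library 2 or homozygote library 3, and 3, with *Vash1*, without homozygote library 1. The count of 1 between homozygotes and heterozygotes was 0 without the limma trend and with the length trend removed, and 0 to 2 over single libraries left out. Between heterozygotes and controls it was 0 throughout. The replicate block took the number in each library's name as a block. Deviations of same-numbered libraries from their group means correlated between -0.143 and 0.128, so the numbers were not taken to pair the libraries, and the block gave *Flt1* an adjusted p of 0.0674 against controls and changed no other call of the 10.

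Directions changed only among values near 0 that were not called. With the length trend removed *Nrp1* was at 0.023 against controls and 0.030 against heterozygotes, and *Nrp2* at 0.0022 for heterozygotes against controls. *Vegfc* for heterozygotes against controls was at 0.0083 in edgeR and 0.0052 in DESeq2. With 1 library left out, homozygotes against controls ranged from -0.054 to 0.10 for *Vegfa*, from -0.12 to 0.039 for *Vegfc* and from -0.092 to 0.021 for *Nrp1*. Homozygotes against heterozygotes ranged from -0.11 to 0.038 for *Vegfa*, from -0.15 to 0.053 for *Vegfc* and from -0.071 to 0.042 for *Nrp1*. Heterozygotes against controls ranged from -0.13 to 0.0047 for *Vegfb*, from -0.080 to 0.10 for *Vegfc*, from -0.15 to 0.032 for *Kdr*, from -0.13 to 0.015 for *Flt4*, from -0.047 to 0.014 for *Nrp1*, from -0.15 to 0.13 for *Nrp2* and from -0.050 to 0.028 for *Vash1*. Library 3 of the heterozygotes and library 1 of the homozygotes had the fewest reads, so their low genes carry the most counting error.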
